A study of Mus musculus with 12 samples.

Results

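The genes described here are 9 mouse genes of neutrophil granules and alarmins, *S100a8*, *S100a9*, *Camp*, *Ngp*, *Ltf*, *Lcn2*, *Retnlg*, *Mmp9* and *Wfdc21*. They were chosen by name, with earlier results of these data known, from a count table of 47643 genes. All 9 were found in it. They were measured in bulk RNA of sorted brain cells from 5 old male mice, mice 1 to 5, with the p16-3MR transgene on a C57BL/6 background, at ages of 113, 115, 116, 116 and 116 weeks. In this transgene a red fluorescent protein is driven by the p16 promoter, so that the fluorescence reports the activity of that promoter in a cell. Each mouse gave 1 library of viable cells labelled RFPneg and 1 of viable cells labelled RFPpos, sorted from that mouse alone, and the methods call these populations low and high in the fluorescence. For this sort the methods name a viability dye, a DNA dye and the fluorescence, and no antibody against a cell type. All the bulk libraries come from old transgenic mice, and the single-cell samples, which pooled mice, were not analysed here.

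S100A8 and S100A9 are calcium-binding proteins that fill the cytosol of neutrophils, pair as calprotectin and act as alarmins when they are released, through receptors such as TLR4 and RAGE. The granules of neutrophils are made in waves while the cells mature in the bone marrow, with peroxidase and serine proteases in the azurophil granules, antimicrobial and metal-binding proteins in the specific granules and gelatinase in the last granules to form. Healthy brain tissue holds few neutrophils, most of them within its blood vessels and borders, and the resident phagocytes of the brain are microglia.

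The libraries were shallow. The RFPneg libraries held 177287 to 415834 counts on genes (median 248471) and the RFPpos libraries 222560 to 289713 (median 242798). The libraries are 3′ libraries, which count tags near the end of each transcript, so that counts were not divided by gene length. Levels are given as counts or as CPM, the counts of a gene scaled to the total on genes in its library. A gene was tested when it had at least 10 counts summed over the 10 libraries, which 12270 genes reached. All 9 genes reached it, but 7 of them had fewer than 10 counts in the RFPpos libraries together and passed through the RFPneg libraries. Calls came from edgeR's quasi-likelihood test with the mouse as a block. The thresholds were a Benjamini-Hochberg adjusted p under 0.05 and a log2 fold change above 1 or below −1. The SE given is the size of the log2 fold change over the square root of the test's F statistic. It restates the test and is not a spread between mice. The p-values of the 9 genes are close to those of a normal statistic. Their size thus rests on variation shared over genes more than on each gene's own spread over the mice.

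The population labels were compared with microglia markers. All 20 microglia core genes had counts in both populations and took 2.14% ± 0.437 of the counts in the RFPneg libraries and 4.45% ± 0.423 in the RFPpos libraries (SD, n = 5 each). Of these 20 genes, 14 were called higher in RFPpos, among them *Ctss* (log2 fold change 1.31) and *Csf1r* (1.32). Both populations thus hold microglia transcripts, and the RFPpos libraries hold more of them.

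Nearly all counts of the 9 genes were in the RFPneg libraries. Summed over the 9 genes, the RFPneg libraries of mice 1 to 5 had 481, 567, 3145, 1114 and 733 counts, and the RFPpos libraries had 12, 30, 43, 1 and 0. The 9 genes took 0.402% ± 0.213 of the counts in RFPneg and 0.00708% ± 0.00802 in RFPpos (SD, n = 5 each), and without mouse 3 the RFPpos share was 0.00404%. When reads on no gene were counted, the shares were 0.262% in RFPneg and 0.00426% in RFPpos. In the RFPpos library of each mouse the summed CPM of the 9 genes was 1.99%, 3.58%, 2.55%, 0.0890% and 0% of that in the RFPneg library of the same mouse. The 0 counts of mouse 5 allow a share of up to 0.00124% of its counts. The RFPneg library of mouse 3 had the most, and the populations did not overlap. Such a difference in bulk RNA can come from fewer cells of a type or from less of the RNA per cell, and these cannot be told apart.

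Of the 9 genes, 8 were called lower in RFPpos and 0 higher, against 6.75% of all genes tested called lower and 2.80% called higher. The gene that was not called was *Mmp9*. At an unadjusted p under 0.05 with the same fold threshold 9 were lower and 0 higher, against 11.3% and 4.19% of all genes tested, and neither DESeq2 nor limma called any of them higher. In 8 of the 9 genes every RFPpos library lay below every RFPneg library in CPM, which held for 6.43% of all genes tested. Of the 9 genes, 7 passed the filter through RFPneg, and all were chosen with earlier results known. These shares are thus a description and no test of the 9 genes as a set. The median log2 fold change of the 9 genes was −4.94, or −4.89 with the 3 genes without a count in RFPpos set at their lower bounds, beside −0.15 over all genes tested. Scaling to the 20 microglia core genes, which moved the median of all genes by −1.12, turned the 828 lower and 343 higher calls over all genes into 5088 and 7, and 9 of the 9 genes were then called lower.

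**Figure D1:**
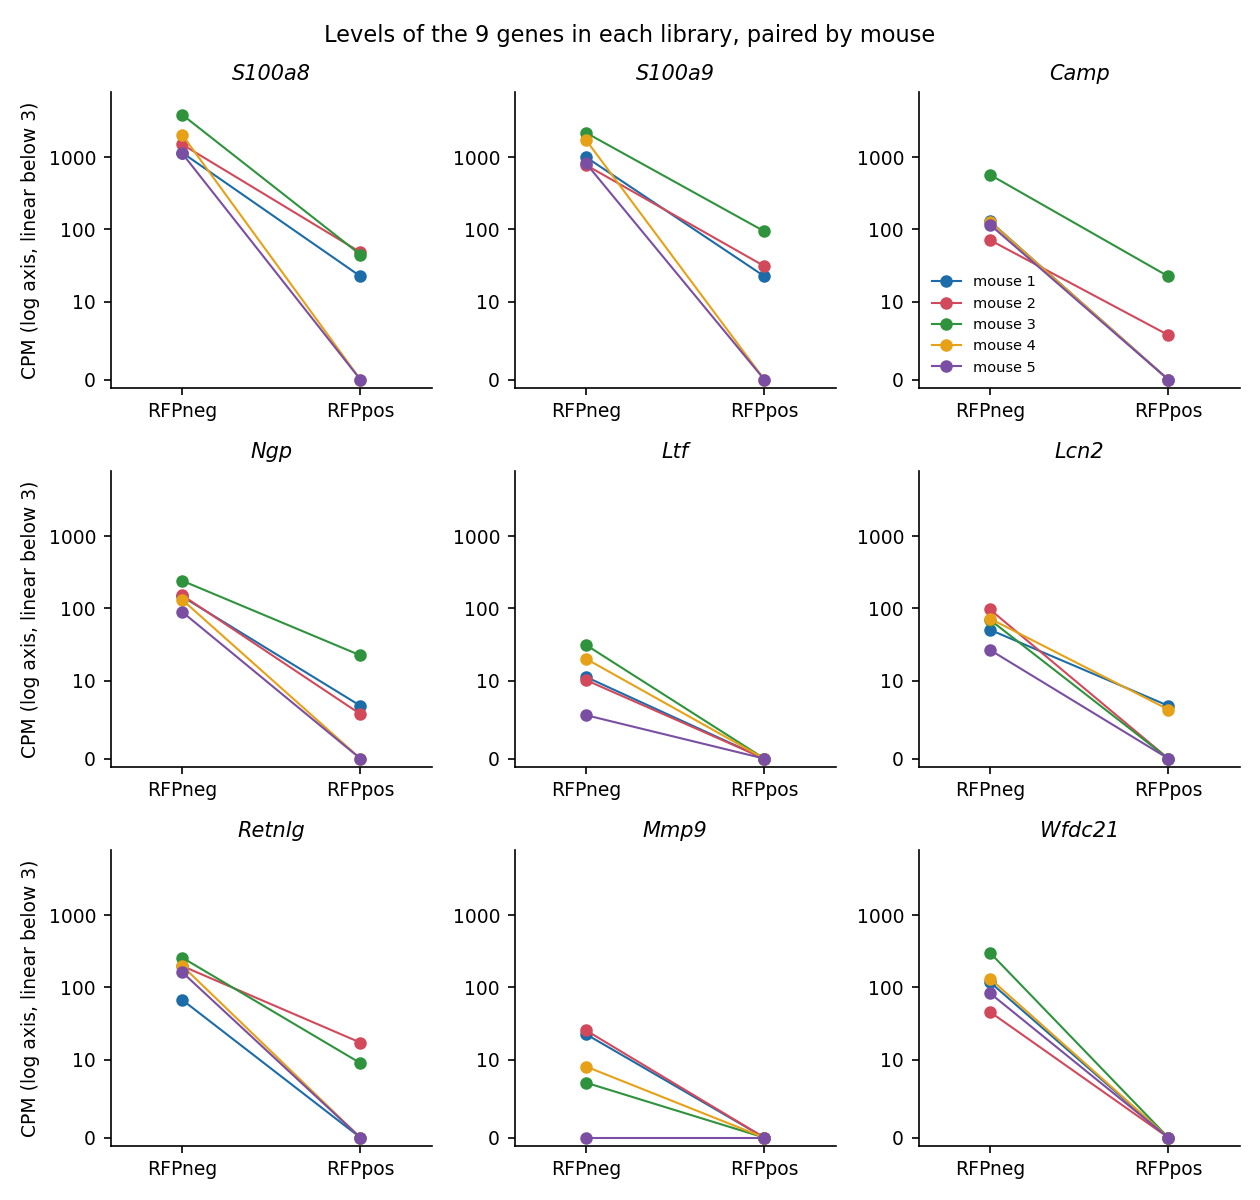
Levels of each of the 9 genes in CPM (log axis, linear below 3) in the RFPneg and RFPpos library of each mouse, with 1 line per mouse (n = 5 mice). In 8 genes all RFPpos libraries lie below all RFPneg libraries, and *Mmp9* is at 0 in the RFPneg library of mouse 5 as well.

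*S100a8* and *S100a9* encode the alarmins and had the most counts of the 9 genes. They lie 22.6 kb apart on chromosome 3 of GRCm38, *S100a8* (ENSMUSG00000056054) at 90668978 to 90670035 on the plus strand and *S100a9* (ENSMUSG00000056071) at 90692632 to 90695721 on the minus strand. *S100a8* had 206, 296, 1620, 511 and 341 counts in the RFPneg libraries of mice 1 to 5 and 5, 14, 10, 0 and 0 in the RFPpos libraries. Mouse 3 had the highest RFPneg level, 3896 CPM against 1138 to 2057 in the others, and the populations were far apart in every mouse. The mean level was 1952 ± 1148 CPM in RFPneg and 23.1 ± 23.3 CPM in RFPpos (SD, n = 5 each), and edgeR gave a log2 fold change of −6.32 ± 0.28 (SE, adjusted p = 1.97e-110, lower in 5 of 5 mice). Without mouse 2 this was −6.97. Among the alternatives the adjusted p of *S100a8* was at most 3.72e-09, from edgeR with the filterByExpr filter. By summed counts *S100a8* ranked 20 among the 17301 genes with a count in RFPneg and 5629 among the 15564 in RFPpos. Mouse 3 gave 1620 of the 2974 RFPneg counts, and without it the RFPneg rank was 31. In the single RFPneg libraries of mice 1 to 5 the rank was 44, 33, 12, 21 and 42.

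*S100a9*, the partner of *S100a8* in calprotectin, had 178, 153, 908, 430 and 247 counts in the RFPneg libraries and 5, 9, 21, 0 and 0 in the RFPpos libraries. As for *S100a8*, mouse 3 was highest in RFPneg, mice 4 and 5 had no count in RFPpos, and the populations did not overlap. Its level was 1305 ± 623 CPM in RFPneg and 29.5 ± 38.6 CPM in RFPpos (SD, n = 5 each), and edgeR gave a log2 fold change of −5.56 ± 0.27 (SE, adjusted p = 2.45e-87, lower in 5 of 5 mice). Without mouse 3 the mean in RFPpos was 13.4 CPM and the log2 fold change of *S100a9* −6.11. Among the alternatives the adjusted p of *S100a9* was at most 2.54e-07, from DESeq2. There were more counts of *S100a8* than of *S100a9* in every RFPneg library, with 1.16 counts of *S100a8* per count of *S100a9* in mouse 1 (95% exact interval 0.942 to 1.42) and 1.94 in mouse 2 (1.59 to 2.37). Genes in general varied between RFPneg mice by more than counting error (chi-square per degree of freedom 3.16 to 9.81 over 10 pairs of mice), so that these ratios are a description. In the RFPpos library of mouse 3 the order was the other way round, with 10 counts of *S100a8* and 21 of *S100a9*.

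The genes of the specific granules had fewer counts than the alarmins and fell with them. *Camp* (ENSMUSG00000038357; chromosome 9, 109847379 to 109849617, minus strand) encodes the cathelicidin precursor, an antimicrobial peptide. It had 23, 14, 238, 32 and 35 counts in RFPneg and 0, 1, 5, 0 and 0 in RFPpos. Mouse 3 stood out in both populations, with 572 CPM in RFPneg against 71.4 to 129.7 in the others, and the populations did not overlap. The log2 fold change of *Camp* from edgeR was −5.24 ± 0.47 (SE, adjusted p = 5.79e-27, lower in 5 of 5 mice). Over the pooled counts *Camp* was 52.4-fold lower (counting interval 23.8 to 143.7), and 113-fold lower without mouse 3 (104 against 1 counts, 19.9 to 4525).

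*Ngp* (ENSMUSG00000032484; chromosome 9, 110419747 to 110423012, plus strand) encodes neutrophilic granule protein, a relative of the cathelicidins, and lies 570.1 kb from *Camp*. Its counts were 26, 30, 101, 33 and 27 in RFPneg and 1, 1, 5, 0 and 0 in RFPpos. Here mouse 3 was only moderately above the other RFPneg libraries, but its RFPpos library again held most of the RFPpos counts. *Ngp* fell from 153 ± 55.9 to 6.07 ± 9.36 CPM (SD, n = 5 each), and edgeR gave a log2 fold change of −4.64 ± 0.47 (SE, adjusted p = 4.32e-21, lower in 5 of 5 mice). The pooled counts of *Ngp* were 28.5-fold lower (counting interval 13.6 to 71.7), and 63.3-fold lower without mouse 3 (116 against 2 counts, 17.1 to 529), where the RFPpos mean was 1.99 CPM.

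*Lcn2* (ENSMUSG00000026822; chromosome 2, 32384633 to 32388252, minus strand) encodes lipocalin 2, which binds bacterial siderophores and is also made by reactive astrocytes and other cells. It had 9, 19, 29, 18 and 8 counts in RFPneg and 1, 0, 0, 1 and 0 in RFPpos. It was the only one of the 9 genes with a count in the RFPpos library of mouse 4, and mouse 3 did not stand above the others in its CPM. Over the pooled counts *Lcn2* was 38.1-fold lower in RFPpos (83 against 2 counts, 95% exact counting interval 10.2 to 320.03, adjusted p = 6.13e-09 from edgeR). Without mouse 1 this was 64.2-fold (74 against 1 counts, 11.2 to 2569) and without mouse 4 it was 58.4-fold (65 against 1 counts, 10.1 to 2341). *Ltf* (ENSMUSG00000032496; chromosome 9, 111019271 to 111042767, plus strand) encodes lactoferrin, an iron-binding protein, and had 2, 2, 13, 5 and 1 counts in RFPneg and 0 in every RFPpos library. At this depth *Ltf* was at least 7.04-fold lower, taking the 0 counts of RFPpos as up to 3 counts over the group (2.44 CPM), and at least 3.64-fold lower without mouse 3. This limit leaves out the counting error of RFPneg, and the 95% exact interval of *Ltf* starts at 5.28-fold. Its adjusted p was 0.0176 from edgeR, but 0.0504 without mouse 2, 0.167 without mouse 3, 0.101 without mouse 4 and 0.107 from DESeq2 (range over the alternatives 2.59e-04 to 0.167), so that its call rests on single mice.

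*Mmp9* (ENSMUSG00000017737; chromosome 2, 164940780 to 164955850, plus strand) encodes gelatinase B, the protease of the gelatinase granules. It had 4, 5, 2, 2 and 0 counts in RFPneg and 0 in every RFPpos library. The RFPneg library of mouse 5 was at 0 as well, so that the populations overlapped, and *Mmp9* had the fewest counts of the 9 genes. Against the same limit of 3 counts it was at least 3.98-fold lower over the pooled counts (at least 2.60-fold without mouse 1 and 2.19-fold without mouse 2), but the test did not pass the threshold (adjusted p = 0.0735 from edgeR, lower in 4 of 5 mice). It passed without the mouse as a block (0.0278), with the likelihood ratio test (0.0120) and with scaling to the microglia genes (0.00403). The adjusted p ranged from 0.00403 to 0.192 over the edgeR and limma alternatives that gave one. DESeq2 gave none, and *Mmp9* was not tested with filterByExpr or without mouse 1 or 2.

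*Retnlg* (ENSMUSG00000022651; chromosome 16, 48872621 to 48874496, plus strand) encodes resistin-like gamma, a secreted protein of myeloid cells. It had 12, 39, 108, 50 and 49 counts in RFPneg and 0, 5, 2, 0 and 0 in RFPpos. Its lowest RFPneg level was in mouse 1 and its highest RFPpos level in mouse 2, and the populations did not overlap. *Retnlg* fell from 178 ± 70.8 to 5.25 ± 7.76 CPM (SD, n = 5 each), and edgeR gave a log2 fold change of −4.89 ± 0.45 (SE, adjusted p = 3.17e-25, lower in 5 of 5 mice). The pooled counts of *Retnlg* were 33.9-fold lower (counting interval 16.2 to 85.1), and 90.1-fold lower without mouse 2 (219 against 2 counts, 24.6 to 749), where the RFPpos mean was 2.24 CPM. *Wfdc21* (ENSMUSG00000051748; chromosome 11, 83746940 to 83752642, plus strand) encodes a secreted protein with a whey acidic protein domain. It had 21, 9, 126, 33 and 25 counts in RFPneg and 0 in every RFPpos library. It was present in all RFPneg libraries and at least 65.5-fold lower in RFPpos against the same limit of 3 counts (adjusted p = 5.21e-24 from edgeR, lower in 5 of 5 mice), and at least 32.0-fold lower without mouse 3, which had 126 of its 214 counts. No other annotated gene overlaps any of the 9 genes.

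The make-up of the 9 genes was compared between the RFPneg libraries, where counts allow it. *S100a8* took 42.8% of the counts of the 9 genes in mouse 1 (95% exact binomial interval 38.4% to 47.4%) and 51.5% in mouse 3 (49.7% to 53.3%). *Camp* took 7.57% in mouse 3 (6.67% to 8.55%), against 2.47% in mouse 2 (1.36% to 4.11%) and 2.87% in mouse 4 (1.97% to 4.03%). In mouse 1 *Camp* took 4.78% (3.055% to 7.09%, overlapping mouse 3) and in mouse 5 4.77% (3.35% to 6.58%). *Retnlg* took 2.49% in mouse 1 (1.30% to 4.32%) and 6.88% in mouse 2 (4.94% to 9.28%). These shares are a description as well, and their intervals cover counting error only, which genes in general exceeded between mice. There were 2.36 counts of *Camp* per count of *Ngp* in mouse 3 (1.86 to 3.004) and 0.467 in mouse 2 (0.229 to 0.908).

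**Figure D2:**
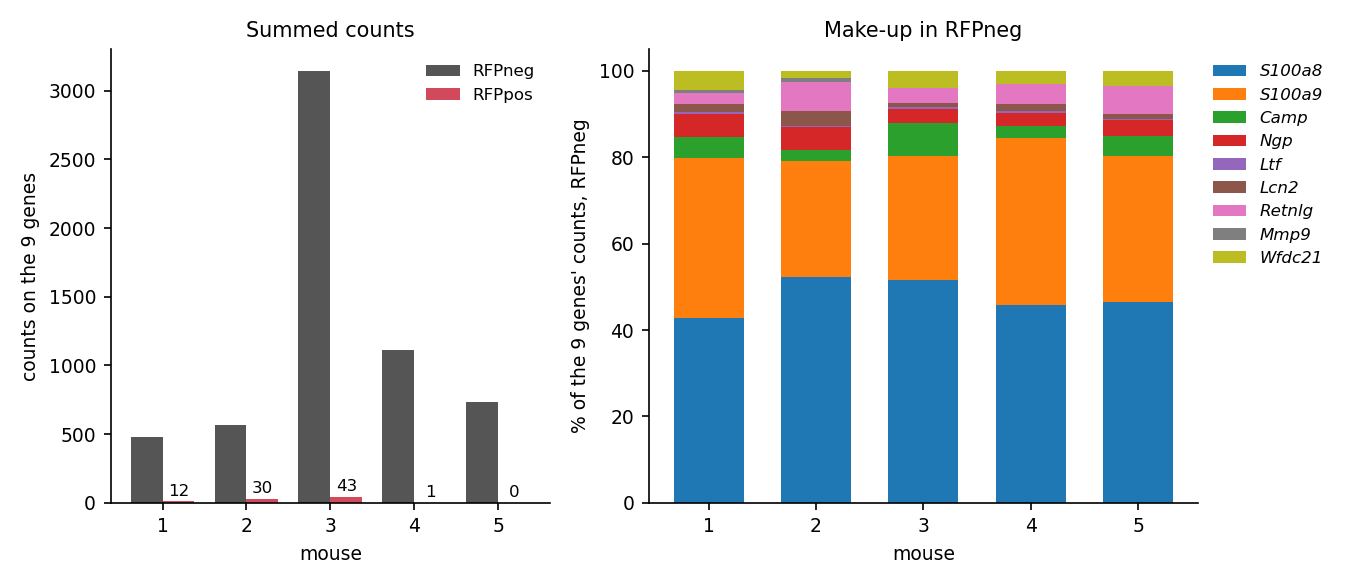
Left, counts summed over the 9 genes in each library, with the RFPpos counts printed (12, 30, 43, 1 and 0). Right, percent of the summed counts of the 9 genes that each gene took in the RFPneg library of each mouse, where *S100a8* and *S100a9* took most counts and *Camp* took its largest share, 7.57%, in mouse 3.

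The bases before the starts of the 9 genes were searched where a promoter was given. The letters sought were those that C/EBP and PU.1 proteins, transcription factors of myeloid cells, are known to bind. RefSeq promoters on GRCm38.p6 were matched for 7 of the 9 genes, with no entry for *Mmp9* and *Wfdc21*. In the 250 bases before the start, TTNNGCAA on either strand was found for 5 of the 7 genes (*S100a9*, *Ngp*, *Ltf*, *Lcn2* and *Retnlg*), and in 9.56% of 32851 promoters. GAGGAAGT on either strand was found for 1 of the 7, *S100a8*, and in 2.44% of promoters. *Camp* had neither set of letters in this window. The alarmin pair and 2 specific granule genes are shown, each 5′ to 3′, up to the start that GENCODE M21 gives and outside the gene, with the matches in capitals. A second match of *Ngp*, 11 to 4 bases before the RefSeq start, and that of *Lcn2* lie inside the GENCODE M21 gene and are not shown. The regions are chr3:90668821-90668977 on the plus strand for *S100a8*, chr3:90695722-90695971 on the minus strand for *S100a9*, chr9:110419558-110419746 on the plus strand for *Ngp* and chr9:111019042-111019270 on the plus strand for *Ltf*. A match is a description of letters and was not tested as a binding site.
S100a8: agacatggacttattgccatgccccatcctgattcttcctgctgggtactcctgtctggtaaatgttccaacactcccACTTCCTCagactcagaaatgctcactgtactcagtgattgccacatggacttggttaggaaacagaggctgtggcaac
S100a9: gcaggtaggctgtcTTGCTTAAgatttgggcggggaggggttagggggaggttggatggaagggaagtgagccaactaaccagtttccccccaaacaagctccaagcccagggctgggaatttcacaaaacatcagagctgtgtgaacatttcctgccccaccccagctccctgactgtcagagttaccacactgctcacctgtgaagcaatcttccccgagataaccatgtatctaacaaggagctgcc
Ngp: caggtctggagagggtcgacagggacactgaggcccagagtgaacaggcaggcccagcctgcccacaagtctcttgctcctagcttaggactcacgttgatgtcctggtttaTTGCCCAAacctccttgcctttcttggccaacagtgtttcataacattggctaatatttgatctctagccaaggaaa
Ltf: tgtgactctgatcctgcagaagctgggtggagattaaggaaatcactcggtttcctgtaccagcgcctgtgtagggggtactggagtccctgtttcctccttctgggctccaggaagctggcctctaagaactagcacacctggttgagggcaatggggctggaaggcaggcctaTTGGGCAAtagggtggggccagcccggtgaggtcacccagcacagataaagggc

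The other neutrophil genes did not move as 1 group. Of 62 further genes of neutrophils, 53 had a count, 30 were tested, 5 were called lower in RFPpos and 4 higher, and 27 had counts in both populations. Without mouse 4, 2 were called higher. Their median log2 fold change was −0.66, beside −4.94 for the 9 genes and −0.15 for all genes tested. Summed over the list, the level was 2859.8 to 3600.0 CPM in the RFPneg libraries and 3007 to 4164 CPM in the RFPpos libraries, with *Itgam* as the most abundant gene. The number called lower was 15 relative to the microglia core genes, where 0 were called higher, and 8 in the fit without pairing by mouse.

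All 5 genes called lower are of the list of other granule and secreted proteins, of which 9 of 19 were tested (median log2 fold change −3.74, or −3.42 with genes without a count in RFPpos at their bounds). *Mmp8*, neutrophil collagenase, had 8, 12, 22, 22 and 15 counts in RFPneg and 0, 6, 0, 0 and 0 in RFPpos, and edgeR gave a log2 fold change of −3.74 ± 0.66 (SE, adjusted p = 5.95e-07). Without mouse 2, which had all the RFPpos counts of *Mmp8*, it was at least 18.4-fold lower. *Anxa1*, annexin A1, had 85 counts in RFPneg and 5 in RFPpos (log2 fold change −3.69, adjusted p = 7.30e-07 from edgeR), 15.6-fold lower over the pooled counts (counting interval 6.44 to 49.3) and 33.7-fold without mouse 4 (75 against 2 counts, 9.01 to 283). *Pglyrp1*, a peptidoglycan recognition protein, had 68 and 1 counts, 62.5-fold lower over the pooled counts (counting interval 10.8 to 2503, adjusted p = 2.54e-07 from edgeR) and at least 13.5-fold lower without mouse 4, which had its 1 count in RFPpos. *Chil3* and *Slpi* had 73 and 35 counts in RFPneg and 0 in RFPpos, at least 22.4-fold and 10.7-fold lower (adjusted p = 9.97e-09 and 9.57e-04 from edgeR), which without mouse 3 became at least 13.8-fold and 5.82-fold, where *Slpi* was not called (0.0537). All 5 were lower in RFPpos in 5 of 5 mice.

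The azurophil granule genes specific to early neutrophils were nearly absent from both populations. *Mpo* had 3 counts, all in RFPneg, *Ctsg* and *Bpi* had 0 counts, and only *Srgn* and *Lyz2*, which other myeloid cells express too, were tested among 8 genes. *Lyz2*, lysozyme 2, had 716 ± 145 CPM in RFPneg and 432 ± 125 CPM in RFPpos (SD, n = 5 each) and was not called (log2 fold change −0.67, adjusted p = 0.00975 from edgeR, under the fold threshold), but was called lower relative to the microglia core genes (−1.83). Among the surface genes of neutrophils, *Itgam* had 851 counts in RFPneg and 1567 in RFPpos, and *Itgb2* 281 and 515. *Ly6g* and *Cxcr2* were sparse. *Ly6g* had 9 counts in RFPneg and 0 in RFPpos, *Cxcr2* 9 and 0, and neither reached the minimum for the test. *Csf3r*, the G-CSF receptor, had 70 counts in RFPneg and 84 in RFPpos (log2 fold change 0.41, adjusted p = 0.621 from edgeR).

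The 4 neutrophil genes called higher in RFPpos are also expressed by microglia. These were *Itgam* (log2 fold change 1.11, CD11b) and *Itgb2* (1.05, CD18) among 20 surface genes, of which 8 were tested, and *Cebpa* (1.67, a C/EBP factor) and *Ncf1* (1.15, a subunit of the NADPH oxidase) among 15 factors and enzymes, of which 11 were tested and 0 were called lower. Relative to the microglia core genes *Itgam* (−0.043) and *Itgb2* (−0.10) turned to slightly negative values, and none of the 4 was called. *Itgb2* was also just under the fold threshold with DESeq2's size factors or test, with library size alone, with filterByExpr and without mouse 4, and *Itgam* without mouse 4. *Cyba*, another oxidase subunit and the most abundant factor or enzyme, had a log2 fold change of 0.75, or −0.39 relative to the microglia core genes, and was called in neither. Median log2 fold changes were −0.16 for the surface list and 0.75 for the factors and enzymes.

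**Figure D3:**
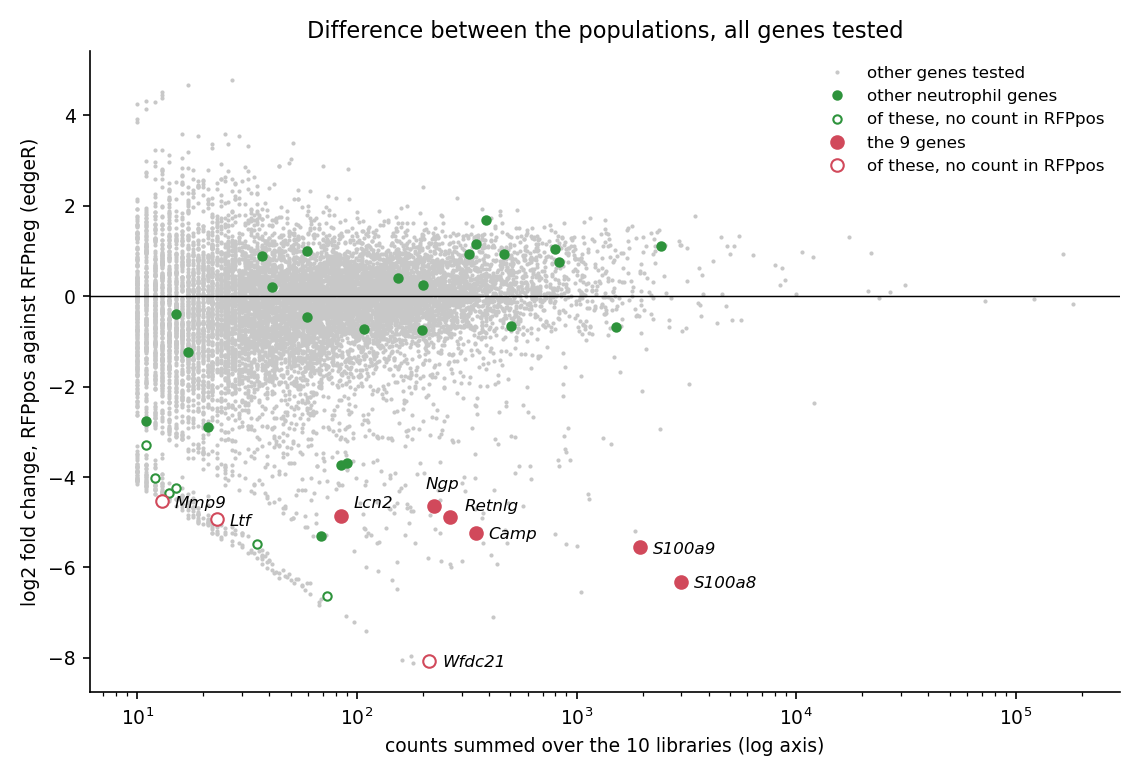
Log2 fold change of RFPpos against RFPneg from edgeR (y axis) by the counts summed over the 10 libraries (x axis, log), for the 12270 genes tested, with 1 point per gene. The 9 genes are red and 30 other neutrophil genes green, open where RFPpos has no count, for which the fitted value depends on the tool's prior count and is not a fold. *S100a8* and *S100a9* lie at −6.32 and −5.56 among genes with many counts.

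Genes for the receptors of the secreted products were counted in the same way. Of 11 such genes, 8 were tested, and *Bsg* was called lower and *Lrp1* higher (median log2 fold change −0.036). *Bsg*, basigin, a receptor of S100A9 that endothelium expresses as well, fell from 841 ± 344 to 91.0 ± 53.4 CPM (SD, n = 5 each), which edgeR gave as −3.13 on the log2 scale (adjusted p = 1.23e-36). *Lrp1*, a clearance receptor that takes up lactoferrin and MMP9, rose by 1.11 on the log2 scale, but not relative to the microglia core genes (−0.035). *Tlr4*, the receptor of calprotectin on myeloid cells, had 32 counts in RFPneg and 68 in RFPpos and was not called.

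Of 8 inhibitors and partners of gelatinase, 7 were tested, with *Timp3* lower and *Timp2* higher in RFPpos. *Timp3*, a tissue inhibitor of metalloproteinases, fell by 1.18 on the log2 scale (1055 ± 380 to 522 ± 312 CPM, SD, n = 5 each) and missed the call with DESeq2, with limma, without the mouse as a block and without mouse 1. *Timp2* rose by 1.10, was not called without mouse 3 and was at −0.050 relative to the microglia core genes. The median of the list was 0.11.

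Other S100 genes were lower in RFPpos too. Of 15 genes, 10 were tested, 7 were called lower and 0 higher, with a median log2 fold change of −1.52. The list holds *S100pbp*, which encodes a binding protein of S100P and is not an S100 gene, and without it 7 of 9 tested genes were called lower, with a median of −1.60. *S100a6* fell from 276 ± 64.3 to 44.9 ± 26.9 CPM (SD, n = 5 each; log2 fold change −2.56, adjusted p = 1.29e-17 from edgeR), and *S100a11*, *S100a16* and *S100a1* had log2 fold changes of −3.15, −1.39 and −1.38. *S100a4*, a calcium-binding protein of many motile cells, had 107 counts in RFPneg and 2 in RFPpos, 49.1-fold lower over the pooled counts (counting interval 13.3 to 411, adjusted p = 1.05e-11 from edgeR), and was 85.9-fold lower without mouse 1 (99 against 1 counts, 15.1 to 3425) and 80.7-fold without mouse 3 (74 against 1 counts, 14.1 to 3232). *S100a16* lost its call with DESeq2 and without mouse 1 or 2, and *S100a1* with DESeq2 and without any of mice 1 to 4. *S100b*, the most abundant of these genes and a marker of glia, was not called (−0.23, adjusted p = 0.665 from edgeR; 0.20 without mouse 1), but was called lower relative to the microglia core genes (−1.41). Among 9 whey acidic protein and resistin-like genes, 3 were tested, and *Wfdc1* (144 and 4 counts, log2 fold change −4.80) and *Slpi* were called lower. Without mouse 4 *Wfdc1* had 109 and 1 counts, 97.9-fold lower (counting interval 17.2 to 3902).

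Markers of other cells differed between the populations as well, and their part in the levels of the 9 genes was not tested. Of 12 monocyte genes, 9 were tested and 8 were called lower, among them *Chil3*, which is in the neutrophil lists as well, *Fn1* (log2 fold change −4.29, or −4.93 without mouse 4) and *Ccr2* (−3.13), and the summed level was 440.0 to 692 CPM in RFPneg and 4.12 to 51.9 CPM in RFPpos. All 14 endothelial genes were called lower, with *Flt1* as the most abundant (−5.20) and a summed level of 2228 to 9611 CPM in RFPneg and 193 to 567 CPM in RFPpos. Of the 4 globin genes, which near-identical copies leave uncertain, all were called lower. The summed levels of the 9 genes and of the monocyte, endothelial and globin lists were thus all higher in RFPneg.

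B cell genes had 3 of 9 tested called lower, led by *Igkc* (416 and 2 counts) and *Ebf1* (log2 fold change −5.85). *Ighm*, the most abundant, was at 0.017 and not called, but at −1.12 and called lower relative to the microglia core genes. Of 8 tested T and NK cell genes, 2 were called lower, *Trbc2* and *Nkg7*, both with 0 counts in RFPpos. Of 8 tested smooth muscle and pericyte genes, 6 were called lower, with *Vtn* as the most abundant (−1.24, not called with DESeq2 or without mouse 1), and of 6 tested choroid plexus and ependyma genes 1 was, *Ttr* (−1.94). Of 8 tested astrocyte genes 0 were called at an adjusted p under 0.05 with the fold threshold (*Slc1a2*, −0.69, or −1.84 and called relative to the microglia core genes), and of 2 tested platelet genes 0 (*Pf4*, 0.21, or −0.94 relative to the microglia core genes and −0.14 without mouse 2). Of 5 tested erythroid genes 4 were called lower, and these are the globin genes given above. *Hbb-bs* was the most abundant of them (log2 fold change −4.39).

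**Figure D4:**
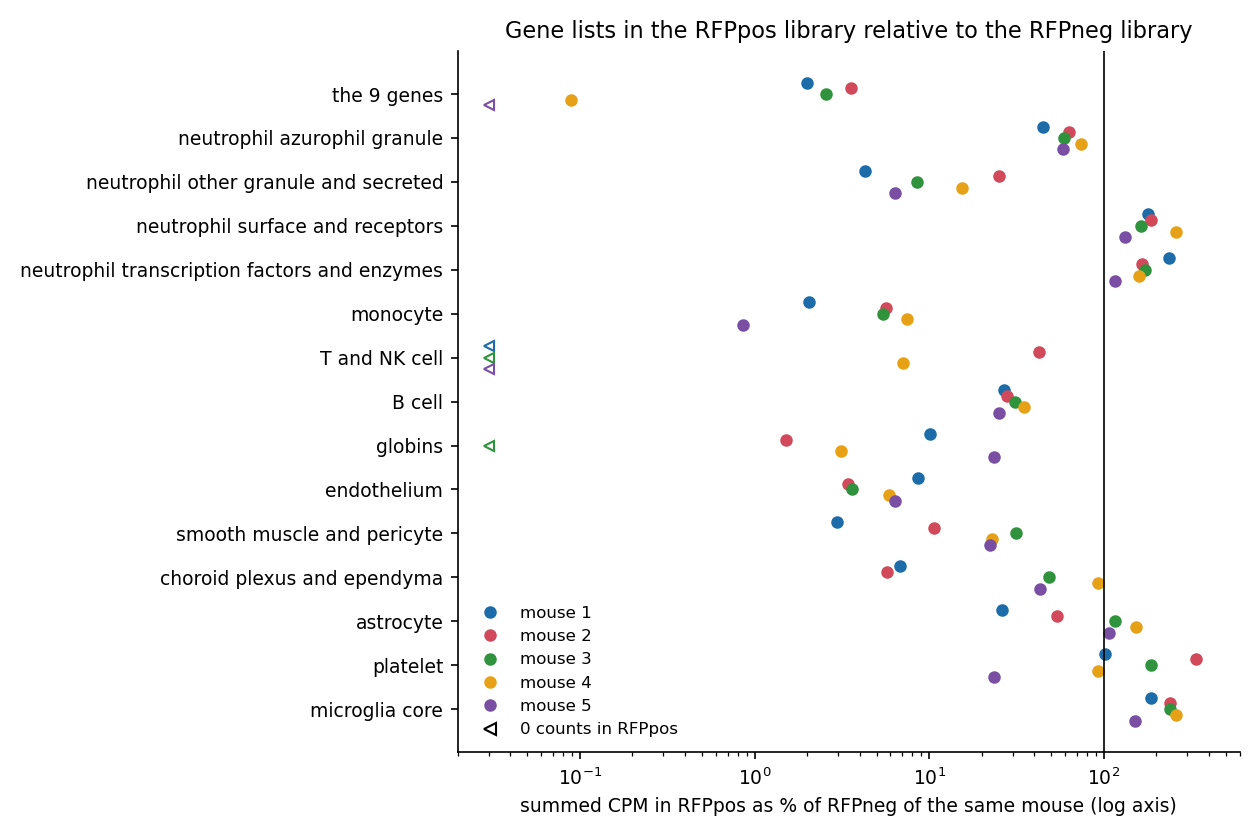
Summed CPM of each gene list in the RFPpos library as percent of that in the RFPneg library of the same mouse (log axis), with 1 point per mouse and open triangles for lists without a count in RFPpos. The 9 genes lie between 0% and 3.58%, the endothelial list between 3.43% and 8.67% and the microglia core list between 151% and 257%.

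The 5 genes outside the 9 whose profile over the 10 libraries was most like the summed CPM of the 9 genes were *Tm4sf1* (overlap of the profiles 89.8%), *Sgpp2* (89.8%), *Gkn3* (88.02%), *Ly6c2* (86.99%) and *Jag1* (86.9%). The overlap is the sum over libraries of the smaller of both shares, among 7053 genes with at least 50 counts, where the median was 51.2%. Since the summed CPM of the 9 genes lies almost wholly in RFPneg, this measure picks genes with few counts in RFPpos. *Tm4sf1* had 262 counts in RFPneg and 3 in RFPpos, all 3 of mouse 4, and the counts of *Ly6c2* are uncertain because it shares sequence with a close relative.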

How the data were processed

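The authors deposited gene counts that were made from QuantSeq 3′ FWD libraries with the Lexogen FWD UMI pipeline, without normalization. The labels name mm10, and the annotation is not given in the sources used here. Reads on no gene (32.1% to 37.2% in RFPneg, 38.4% to 48.6% in RFPpos) and ambiguous reads stayed out of library sizes. Symbols and coordinates came from GENCODE M21 on GRCm38, which named 47224 of the 47643 genes.

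Counts were fitted with edgeR 4.0.16 (R 4.3.3), TMM scaling and the mouse as a block. The pairing comes from the methods and labels, since both populations came from the same mice. Deviations from the group means correlated within mice by 0.207, −0.036, 0.139, −0.003 and 0.018. DESeq2 1.42.0 and limma 3.58.1 were alternatives. The script was tested on simulated data. The study's DAFS filter was not repeated. Intervals, by SciPy 1.17.1, and the limit of 3 counts cover counting error only.

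The members and gene lists were chosen with earlier results of these data known. From each list the most abundant gene was named, with up to 4 called genes of highest mean CPM, or up to 2 in lists of other cells, and the cell type markers. A list of markers of other cells is not reported here. Genes named beyond this (*Tlr4*, *Srgn*, *Mpo*, *Ctsg*, *Bpi*, *S100a4* and *S100pbp*) were chosen after their values were seen.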

Additional observations from a re-analysis of the deposited data

Results flagged for a closer look

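Single libraries were compared with the other 4 of their population in 133 groups of 5 values, and 14 stood apart. Chance sets apart about 1 in 20 groups of normal values, which counts near 0 are not, so that no excess is read from this. Mouse 3 appears in 6 of them. Its RFPneg library had 572 CPM of *Camp* (others 71.4 to 129.7), 45.7 CPM of *Slpi* (10.2 to 20.1), 1484 CPM summed over the 7 granule genes other than the alarmins (484 to 696) and 1222 CPM over the other S100 genes (888 to 959). Its RFPpos library had 22.4 CPM of *Camp* (0 to 3.45) and 22.4 CPM of *Ngp* (0 to 4.49), from 5 counts each.

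In RFPpos, *Mmp8* was at 20.7 CPM in mouse 2 (6 counts) and *Pglyrp1* at 3.99 CPM in mouse 4 (1 count), with 0 in the other libraries. A group with a count in only 1 library always stands apart by this measure, as these 2 did. The other neutrophil genes summed to 3007 CPM in the RFPpos library of mouse 5 (3949 to 4164 in the others). The RFPneg library of mouse 1 had 101.5 CPM of *Cyba* (270.3 to 298 in the others) and 569.7 CPM over the neutrophil factors and enzymes (904 to 981). The T and NK cell list was at 40.8 CPM in the RFPneg library of mouse 2 (153 to 169 in the others). The RFPpos library of mouse 4 had 1593 CPM of *Ttr* (155 to 426) and 1637 CPM over the choroid plexus and ependyma list (176 to 453). The causes were not tested.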

How the results depend on the processing

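Of the 9 genes, 6 to 9 were called lower under the alternatives, and all 138 of their log2 fold changes under the alternatives were below 0. With filterByExpr only 6 were tested, all called. Adjusted p-values moved by many orders of magnitude. The largest from edgeR with filterByExpr were 3.72e-09 for *S100a8*, 9.76e-08 for *Camp* and 6.08e-07 for *Ngp*. There they were 4.93e-07 for *Retnlg* and 1.27e-06 for *Wfdc21*. For *S100a9* and *Lcn2* the largest came from DESeq2, 2.54e-07 and 7.51e-05. Leaving out each mouse gave 7 to 8. It was 7 without mouse 2, 3 or 4, where *Ltf* was not called. *Mmp9*, which was not called with all mice, fell under the minimum without mouse 1 or 2. Without the mouse as a block (no pairing) 9 were called, since *Mmp9* passed, and 946 genes were lower and 371 higher over all. Over all genes, 828 lower became 5088 with scaling to the microglia core genes, 385 with filterByExpr (4210 genes tested) and 1386 at unadjusted p, and 343 higher became 7 with the microglia scaling, 206 with DESeq2 and 524 without a fold threshold. Leaving out each mouse gave 624 to 768 lower and 305 to 374 higher. The other neutrophil genes called lower, 5, became 15 with the microglia scaling, 1 with filterByExpr, 9 with the likelihood ratio test, 8 without the block and 9 at unadjusted p, and 5 in every fit that left out a mouse. Those called higher, 4, became 0 with the microglia scaling and 7 without a fold threshold, and 2 to 6 without each mouse. With the microglia scaling the log2 fold changes of *Itgam* (−0.043), *Itgb2* (−0.10), *Lrp1* (−0.035), *Timp2* (−0.050), *Cyba* (−0.39), *Pf4* (−0.94) and *Ighm* (−1.12) had the opposite sign, as did *S100b* without mouse 1, *Pf4* without mouse 2 and *Ighm* under 7 further alternatives. Of 813 values of named genes under alternatives, 34 lost and 11 gained the call. The share of counts on the 9 genes was 0.262% in RFPneg and 0.00426% in RFPpos when reads on no gene were counted. Causes other than fewer genes tested, fewer samples or the shift that the scaling itself makes were not tested. With 177287 to 415834 counts in a library, genes such as *Ltf* and *Mmp9* were at the limit of what could be detected.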

Other observations

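The few counts of the 9 genes in the RFPpos libraries did not follow the globin counts of the same libraries. Over the 4 globin genes the RFPpos libraries of mice 1 to 5 had 26, 4, 0, 15 and 22 counts, and over the 9 genes 12, 30, 43, 1 and 0. The RFPpos library of mouse 3, with the most counts of the 9 genes, thus had none of the globins, and that of mouse 5 had globins and none of the 9 genes. In RFPneg the order of the mice was more alike. There the globins summed to 1156, 918, 1457, 1924 and 387 CPM in mice 1 to 5. The 9 genes summed to 2713, 2891, 7563, 4483 and 2446 CPM. Mice 3 and 4 were highest and mouse 5 lowest in both. With 5 libraries in each population no correlation is given. This was noticed after the values were seen, and its cause was not tested.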
